A study of Homo sapiens with 6 samples.

Results

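Messenger RNAs of the Mediator complex were examined in MIA PaCa-2 cells, a long-established line of human pancreatic ductal carcinoma, kept with or without triptolide. The set consisted of 32 genes, listed by symbol as the core subunits and the kinase module. All 32 were matched by symbol among the 35716 genes of the deposited count table. The 3 untreated libraries came from wild-type cells in medium with serum, with no agent named, and the 3 triptolide libraries from the same wild-type line given 10 nM triptolide for 24 h. No vehicle is named, and nothing states that libraries of a group were grown separately. The p-values therefore reflect library-to-library spread alone, possibly technical in origin. By its labels each group is 1 cell line in culture, although the extraction protocol names pancreas as the source of RNA.

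Mediator is a large assembly that carries signals from DNA-bound transcription factors to RNA polymerase II. Its head and middle modules contact the polymerase and the general factors at the promoter, its tail binds activators, MED14 runs through the structure as a scaffold, and a separable kinase module of CDK8 or CDK19, cyclin C, MED12 and MED13 docks on the core and keeps the polymerase away while it is bound. Triptolide binds XPB, the translocase of the general factor TFIIH, which works at the same promoters as Mediator and whose kinase Mediator stimulates.

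The libraries held between 16302961 and 23262713 counts, of which the Mediator genes made up 0.118% to 0.145%. The summed level of 5 markers of the carcinoma line ran from 2570 to 3672 CPM (counts scaled to a common library size with TMM factors) untreated and from 1970 to 2627 CPM with triptolide, with 0 of 4 tested higher and 1 lower. That gene was KRT18, a keratin of simple epithelia, whose mean went from 869.9 to 503 CPM (adjusted p = 0.0122), while its partner KRT8 stood at 1894 and 1587 CPM and was not called. EPCAM, an epithelial surface marker that many carcinomas carry, had a mean of 0.07 CPM in untreated and 0.05 CPM in triptolide libraries. Markers of other cell types differed between the groups. The summed level of 27 placental trophoblast markers ran from 28.7 to 31.6 CPM untreated and from 604 to 981 CPM with triptolide, with 19 of 21 tested markers higher, 0 lower, and 7 of the 27, among them GCM1 and PSG2, at 0 in all untreated libraries. The sum of 17 fibroblast and mesenchymal markers ran from 1340 to 1701 CPM and from 1176 to 1438 CPM, with 9 of 14 tested lower, 0 higher, and FAP and CDH2 at 0 with triptolide. Its largest parts were COL5A2 (means of 850 and 914 CPM) and COL1A2 (323 and 329 CPM), neither of them called. COL1A1, among those lower, went from 61.1 to 2.83 CPM. The sum of 11 blood and myeloid markers ran from 3.10 to 4.09 CPM and from 12.7 to 24.8 CPM, with 4 of 5 tested higher and 0 lower. That of 4 endothelial markers ran from 20.9 to 25.8 CPM and from 15.7 to 21.1 CPM, with 1 of 2 tested higher and 1 lower. The lower one, CDH5, was its largest part, with means of 23.6 and 15.9 CPM. The part of these differences in any result on Mediator was not tested. Untreated replicate 3 and triptolide replicate 1 stood apart from the other libraries of their groups, in ways that followed transcript length and GC content and are described for the Mediator genes after the modules. Counts of genes are therefore given with and without this pair.

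Of the 32 Mediator genes, all of which passed the filter on low counts, 1 rose with triptolide and 1 fell at an adjusted p under 0.05, and 30 were not called. MED29 rose 1.83-fold and MED8 fell 1.91-fold. These calls are 6.25% of the Mediator genes, against 15.9% of all 15202 genes tested (10% higher and 5.82% lower), and against 13.1% of the 8761 genes whose mean CPM lay within the range of the Mediator genes, 4.93 to 127.5 CPM. The values of untreated and triptolide libraries did not overlap in 6 Mediator genes, or 18.8%, against 36.7% of all genes tested. Besides MED8 and MED29 these were MED9, MED10 and MED30, all lower with triptolide, and MED24, which was higher. The fitted log2 fold changes ran from -0.93 to 0.87, with a median of -0.11 against -0.004 over all genes tested. With ribosomal protein scaling these medians were 0.072 and 0.172. In the main fit 19 of the 32 were below 0, against 7653 of all 15202 genes. Each level is a share of its library, which shows neither the number of cells nor the amount of RNA per cell. Summed over the 32 genes, the level was 1351 ± 68.2 CPM untreated and 1360 ± 100.1 CPM with triptolide (SD, n = 3 libraries each).

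Missing the threshold does not show that the other 30 mRNAs kept their level. Their 95% intervals lay within a 2-fold change either way in 27 of 30 genes and reached past a 1.5-fold change in 21. Without untreated replicate 3 and triptolide replicate 1, a comparison of 2 against 2 libraries chosen after the values were seen, 24.3% of 15628 tested genes passed, and among Mediator genes MED29 rose and 5 fell, namely MED8, MED10, MED1, MED23 and CDK8. Scaling on ribosomal protein genes left MED29 as the only call, and MED8 then had an adjusted p of 0.0849.

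**Figure D1:**
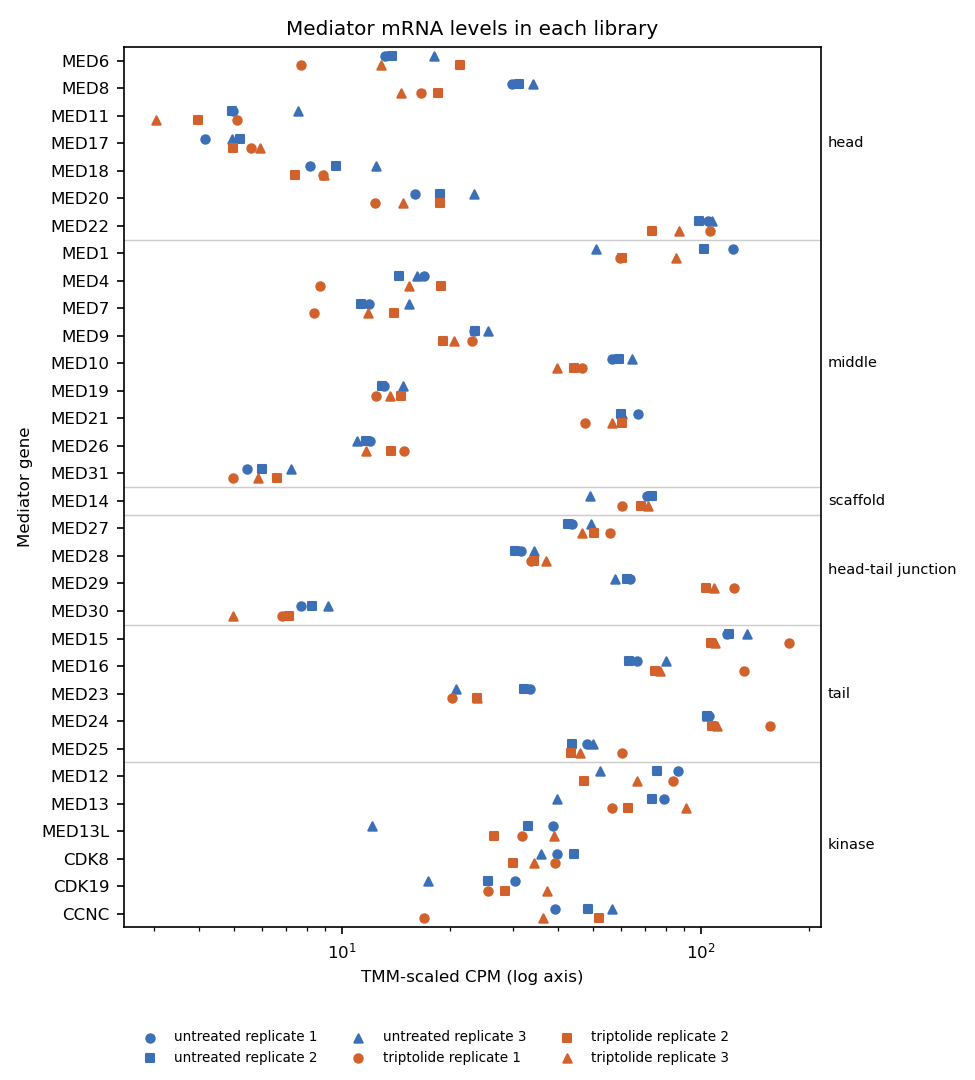
Level of each Mediator gene (rows, grouped by module) in the 6 libraries, in TMM-scaled CPM on a log axis; blue points are untreated and orange points triptolide libraries, with 1 symbol per replicate. MED8 (14.7 to 18.5 CPM with triptolide) and MED29 (103 to 123 CPM) are the rows where the colours stand farthest apart, and in most other rows they mix.

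The head module holds MED6, MED8, MED11, MED17, MED18, MED20 and MED22 and forms the jaw that meets the polymerase. MED8 (ENSG00000159479), the long helical subunit that tethers the MED18-MED20 pair to the rest of the head, stood at 29.8, 31.2 and 34.1 CPM in the untreated and at 16.6, 18.5 and 14.7 CPM in the triptolide libraries. Every triptolide library was below every untreated one. The log2 fold change was -0.93 ± 0.17 (SE), with an adjusted p of 0.00339 and a 95% interval from -1.30 to -0.57. It fell in each fit that left out 1 library, with an adjusted p between 0.00516 and 0.0236. The antisense gene AL139289.1 covers 5.1% of its exon bases in GENCODE 29 and had 10 to 23 counts per library, against 264 to 620 for MED8.

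No other head gene passed. MED22, which pairs with MED11 and had the highest CPM of the head genes (not corrected for length), stood at 105, 99.1 and 108 CPM untreated and at 106, 73.1 and 87.1 CPM with triptolide, so that triptolide replicate 1 lay among the untreated libraries. Its adjusted p was 0.398. It passed in 1 of the alternative settings, a correction for GC content (0.0411), and not with that correction and a replicate block together (0.106) or in the 2 against 2 comparison (0.0624). MED11 had 4.99, 4.93 and 7.54 CPM untreated and 5.10, 3.98 and 3.04 CPM with triptolide (log2 fold change -0.54 ± 0.26, adjusted p = 0.178). The groups overlapped through triptolide replicate 1. Exons of AC091153.4 and CXCL16 on the other strand cover 25.9% of the longest MED11 transcript, and CXCL16 had 327 to 535 counts per library. MED18 and MED20, the movable pair held by MED8, had log2 fold changes of -0.26 ± 0.21 and -0.34 ± 0.21, and MED6, which bridges head and middle, -0.10 ± 0.30. MED17, the backbone of the head, was the only head gene with a fitted change above 0 (0.21 ± 0.20, adjusted p = 0.534). It had 4.77 ± 0.55 CPM untreated and 5.50 ± 0.47 CPM with triptolide. Exons of AP001273.2 on the same strand and TAF1D on the other cover 43.6% of its longest coding transcript, and the treatment of shared reads in the counting is not stated. Summed over the head, the level was 191 ± 15.3 CPM untreated and 153 ± 8.30 CPM with triptolide, and 159 ± 13.2 and 136 ± 8.41 CPM without MED8. Neither pair of sums overlapped between groups, and the head sums did not overlap with library totals as the scale either.

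The middle module links the head to the kinase module and carries MED1, the subunit that nuclear receptors bind. None of its 9 genes passed. In the main fit 8 of the 9 had changes below 0, against 7653 of all 15202 genes tested. With ribosomal protein scaling MED4, MED7, MED19 and MED31 changed sign, to between 0.039 and 0.185. MED10, a small subunit of the module's core, came nearest to passing, with 56.5, 59.2 and 64.5 CPM untreated and 46.6, 44.5 and 39.7 CPM with triptolide. These groups did not overlap, and the log2 fold change was -0.46 ± 0.16 with an adjusted p of 0.0657. Its adjusted p was 0.033 in DESeq2, 0.0193 with the GC correction, 0.0344 without triptolide replicate 1 and 0.017 in the 2 against 2 comparison, and it ranged up to 0.563 under ribosomal protein scaling.

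MED1 had the highest CPM of the middle genes without correction for length, at 123, 102 and 51.2 CPM untreated and 59.5, 60.2 and 85.2 CPM with triptolide. Untreated replicate 3 lay below all 3 triptolide libraries, and the other untreated libraries lay above them. The log2 fold change was -0.43 ± 0.28 (adjusted p = 0.32), and -0.73 ± 0.20 without untreated replicate 3 (adjusted p = 0.0411), so that 1 library decides this call. MED9, which sits beside MED4, had 23.3, 23.5 and 25.6 CPM untreated and 23.1, 19.2 and 20.6 CPM with triptolide, without overlap (adjusted p = 0.432). MED7 and MED21, partners in the hinge of the module, had log2 fold changes of -0.17 ± 0.22 and -0.19 ± 0.16. MED4 had -0.14 ± 0.25 and MED19, which activators and repressors contact, -0.004 ± 0.17. MED31, which binds MED7, had the lowest uncorrected CPM of the module, at 5.44, 5.98 and 7.21 CPM untreated and 4.97, 6.61 and 5.83 CPM with triptolide, and the groups overlapped. Exons of TXNDC17 on the other strand, a gene with 1032 to 1701 counts per library, cover 74.2% of the longest MED31 transcript. Without a stated strand setting, reads of the pair cannot be told apart. MED26, the subunit that brings in the super elongation complex, had the only fitted change above 0 (0.21 ± 0.18, adjusted p = 0.451). Exons of other genes on both strands cover 58.9% of the longest MED26 transcript. The summed level of the module was 299 ± 31.6 CPM untreated and 246 ± 17.8 CPM with triptolide, and 207 ± 7.87 and 178 ± 12.7 CPM without MED1, and the groups did not overlap. With library totals as the scale the sums of the whole module overlapped, at 293 ± 44.0 and 252 ± 30.1 CPM.

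MED14 (ENSG00000180182), the scaffold to which head, middle and tail attach, stood at 70.8, 73.1 and 49.2 CPM untreated and at 60.5, 68.2 and 71.5 CPM with triptolide. The groups overlapped, and the log2 fold change was 0.05 ± 0.18 (adjusted p = 0.877), with a 95% interval from -0.35 to 0.45.

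MED27, MED28, MED29 and MED30 lie where the head meets the tail and are assigned to either module in different structural schemes. MED29 (ENSG00000063322), the counterpart of the Drosophila gene intersex, stood at 63.4, 62.3 and 57.8 CPM in the untreated and at 123, 103 and 108.5 CPM in the triptolide libraries. All triptolide values lay above all untreated ones, and the nearest differed by more than the spread within either group. The log2 fold change was 0.87 ± 0.15, with an adjusted p of 0.00314 and a 95% interval from 0.53 to 1.21. It rose under each of the 17 alternative settings, with log2 fold changes from 0.75 to 1.03 and adjusted p-values from 2.93e-05 to 0.0252. No exon of another GENCODE 29 gene overlaps its exons.

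The other 3 of these genes did not follow it. MED27 stood at 43.9, 42.7 and 49.3 CPM untreated and at 55.7, 50.3 and 46.7 CPM with triptolide (log2 fold change 0.17 ± 0.16, adjusted p = 0.513). The groups overlapped through untreated replicate 3 and triptolide replicate 3. MED28 had 32.1 ± 2.08 and 35.0 ± 1.81 CPM (adjusted p = 0.628), and exons of FAM184B, which had 3 to 11 counts per library, cover 32.4% of its longest transcript on the other strand. MED30, a subunit found in animals but not in yeast, had the lowest uncorrected CPM of the 4, at 7.68, 8.26 and 9.14 CPM untreated and 6.8, 7.13 and 4.99 CPM with triptolide. Its groups did not overlap, while its log2 fold change of -0.41 ± 0.21 had an adjusted p of 0.2. The summed level of the 4 genes was 147 ± 3.55 CPM untreated and 204 ± 13.5 CPM with triptolide. Without MED29 the sums were 85.7 ± 6.22 and 92.2 ± 3.72 CPM and overlapped.

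The 250 bases before the RefSeq start of MED29 (GRCh38.p14, chr19:39391128-39391377, plus strand) are shown beside those of MED27 (chr9:132079868-132080117, minus strand), since MED29 is the gene that rose and MED27 a neighbour in the complex that was not called. Capitals mark exact matches, on either strand, to the GC box (GGGCGG), the CCAAT box (CCAAT, read ATTGG on the other strand), the TATA box (TATAAA) or motifs of ETS factors (CCGGAAG) and MYC (CACGTG), none of which contains another.
MED29: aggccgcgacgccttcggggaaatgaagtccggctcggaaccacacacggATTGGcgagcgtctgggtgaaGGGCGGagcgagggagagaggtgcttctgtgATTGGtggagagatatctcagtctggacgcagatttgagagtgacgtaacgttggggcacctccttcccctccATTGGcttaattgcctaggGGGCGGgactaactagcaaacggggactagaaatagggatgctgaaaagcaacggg
MED27: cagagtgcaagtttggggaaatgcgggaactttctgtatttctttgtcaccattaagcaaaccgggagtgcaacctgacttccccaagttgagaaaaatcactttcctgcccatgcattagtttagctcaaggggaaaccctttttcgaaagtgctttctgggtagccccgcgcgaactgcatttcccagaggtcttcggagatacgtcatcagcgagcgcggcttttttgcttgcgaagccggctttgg
The MED29 window holds 5 matches, to the GC box and the CCAAT box, and that of MED27 has 0. Both windows are without TATAAA. Promoter windows were found for 24 of the 32 Mediator genes. In the shares below, a Mediator gene counts once if any of its windows matches, while the comparison counts single windows. The 2 measures are thus not alike. A GC box match lay in 66.7% of the 24, against 42.6% of all 35116 windows in the table, a CCAAT match in 37.5% against 32%, an ETS match in 20.8% against 8.52% and a TATA match in 8.33%, namely in MED7 and MED16, against 10.7%. A match to the MYC motif lay in 8.33% against 6.34%. The median GC content of the windows was 57.6% for Mediator and 58.0% for all. Matches to both the GC box and the CCAAT box also lay upstream of CDK19, MED13L, MED16, MED19 and MED7, which were not called. These are matches of letters only. The pair shown was chosen by its response, and matches were otherwise not set against the response.

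The tail module takes up signals from activators. None of its 5 genes passed, and triptolide replicate 1 was the highest library for 4 of them. MED15, which binds the sterol regulator SREBP, had the highest uncorrected CPM of the tail, at 118, 120 and 134 CPM untreated and 176, 107 and 109 CPM with triptolide (log2 fold change 0.07 ± 0.20, adjusted p = 0.835). Triptolide replicate 1 lay above all other libraries, and the other triptolide libraries lay below all untreated ones. MED16 showed the same library on top, with 66.3, 63.2 and 80.2 CPM untreated and 132, 74.6 and 77.0 CPM with triptolide. Its log2 fold change was 0.43 ± 0.22 (adjusted p = 0.212). MED24, which sits with MED16 and MED23 in the tail, had 106, 104 and 104 CPM untreated and 156, 108 and 111 CPM with triptolide. The groups did not overlap, by a small margin, and the adjusted p was 0.361. MED25, which binds the ETS factor ETV4, had 47.4 ± 3.32 and 49.99 ± 8.99 CPM (adjusted p = 0.807). MED23, a partner of the ETS factor ELK1, had the lowest uncorrected CPM of the tail, at 33.5, 32.3 and 20.8 CPM untreated and 20.3, 23.8 and 23.8 CPM with triptolide. Untreated replicate 3 lay among the triptolide libraries. The log2 fold change was -0.35 ± 0.20 (adjusted p = 0.266). Without untreated replicate 3 alone it was -0.55 ± 0.17 and was not called (adjusted p = 0.0651), and in the 2 against 2 comparison, which also lacks triptolide replicate 1, it was -0.46 ± 0.10 (adjusted p = 0.0153).

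**Figure D2:**
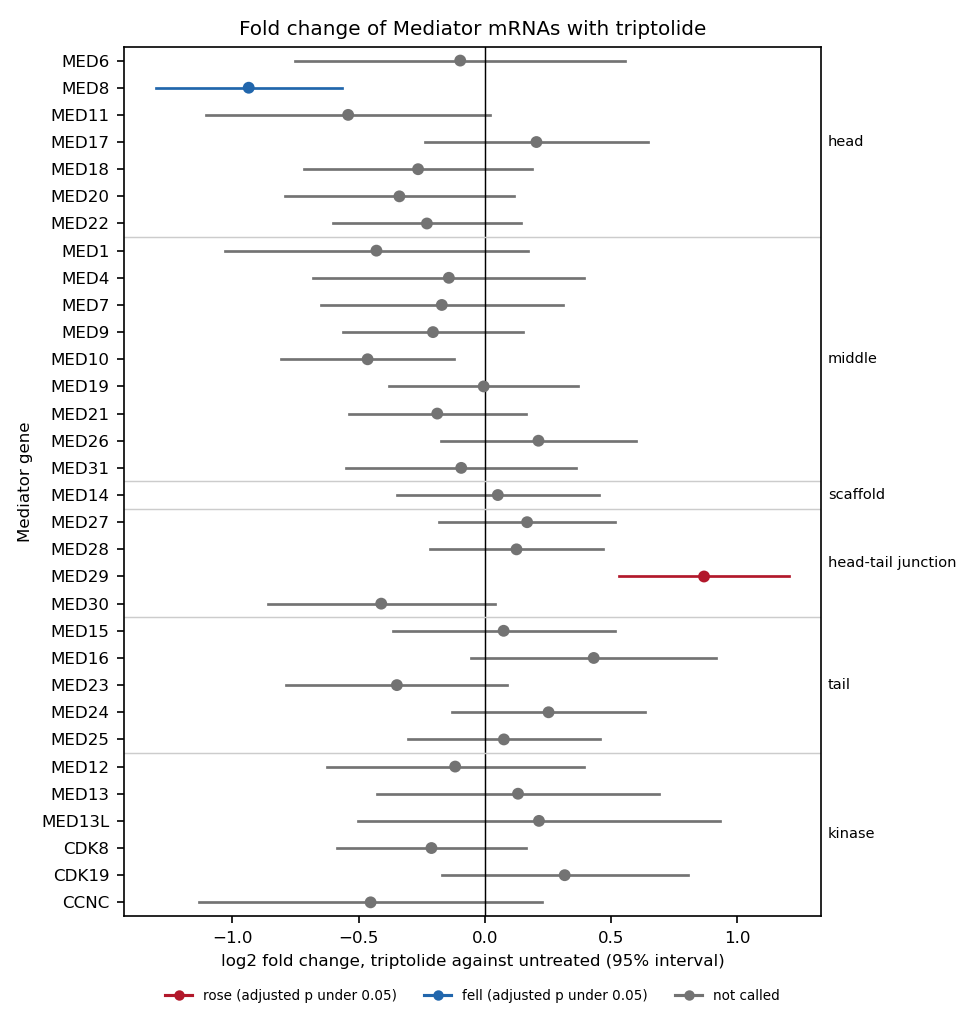
Fitted log2 fold change of each Mediator gene with triptolide against untreated (horizontal axis), with 95% intervals as lines, grouped by module. The intervals of MED8, MED10 and MED29 lie clear of 0, and MED10 did not pass after adjustment over all genes (adjusted p = 0.0657).

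None of the 6 genes of the kinase module passed. CCNC, which encodes cyclin C, stood at 39.3, 48.5 and 56.6 CPM untreated and at 16.9, 51.9 and 36.4 CPM with triptolide. The triptolide libraries thus spanned a wider range than the distance between the group means, and the log2 fold change was -0.45 ± 0.31 (adjusted p = 0.357). MED12, which activates the kinase, had the highest uncorrected CPM of the module, at 86.3, 75.4 and 52.5 CPM untreated and 83.8, 47.3 and 66.6 CPM with triptolide (log2 fold change -0.12 ± 0.23, adjusted p = 0.777). The groups overlapped over most of their range.

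The alternative kinases of the module, CDK8 and CDK19, had fitted changes on either side of 0. CDK8 (ENSG00000132964) stood at 39.7, 44.3 and 35.9 CPM untreated and at 39.2, 30.1 and 34.4 CPM with triptolide. Its log2 fold change was -0.21 ± 0.17 (adjusted p = 0.443), and -0.38 ± 0.12 in the 2 against 2 comparison (adjusted p = 0.0492). CDK19 (ENSG00000155111) stood at 30.4, 25.5 and 17.4 CPM untreated and at 25.5, 28.6 and 37.2 CPM with triptolide, with a log2 fold change of 0.32 ± 0.22 (adjusted p = 0.368). Both pairs of groups overlapped. The share of CDK8 in the counts of both kinases, which needs no scaling between libraries, was 56.6%, 63.4% and 67.3% untreated and 60.6%, 51.3% and 48.0% with triptolide. The means were 62.5% ± 5.41 and 53.3% ± 6.52, and an exact two-sided permutation test gave p = 0.2, where the smallest p that 3 against 3 libraries allow is 0.1.

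MED13 and MED13L, either of which links the kinase module to the core and which the ubiquitin ligase subunit FBXW7 targets, were both not called. MED13 had 79.0, 73.1 and 39.7 CPM untreated and 56.5, 62.5 and 90.8 CPM with triptolide (adjusted p = 0.771). MED13L had 38.8, 33.0 and 12.2 CPM untreated and 31.7, 26.6 and 39.0 CPM with triptolide (adjusted p = 0.702). Untreated replicate 3 was the lowest library for both. The share of MED13 in the counts of the pair was 70.8% ± 4.997 untreated and 68.1% ± 3.47 with triptolide (exact permutation p = 0.6).

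MED12L, the paralogue of MED12 and not among the 32 genes, rose. It had 21, 17 and 12 counts in the untreated and 37, 43 and 67 counts in the triptolide libraries, or 0.93 ± 0.26 and 2.30 ± 0.40 CPM. The groups did not overlap, and the log2 fold change was 1.31 ± 0.30 (adjusted p = 0.0119, and 0.0556 without triptolide replicate 3). The share of MED12 in the counts of the pair was 98.7%, 98.8% and 98.8% untreated and 97.3%, 96.2% and 96.1% with triptolide (exact permutation p = 0.1, the smallest possible). Nearly all counts of this pair thus came from MED12 in both groups. Exons of IGSF10, on the other strand, cover 28.8% of the exon bases of MED12L, and IGSF10 had 0 counts in 5 libraries and 1 in triptolide replicate 1.

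**Figure D3:**
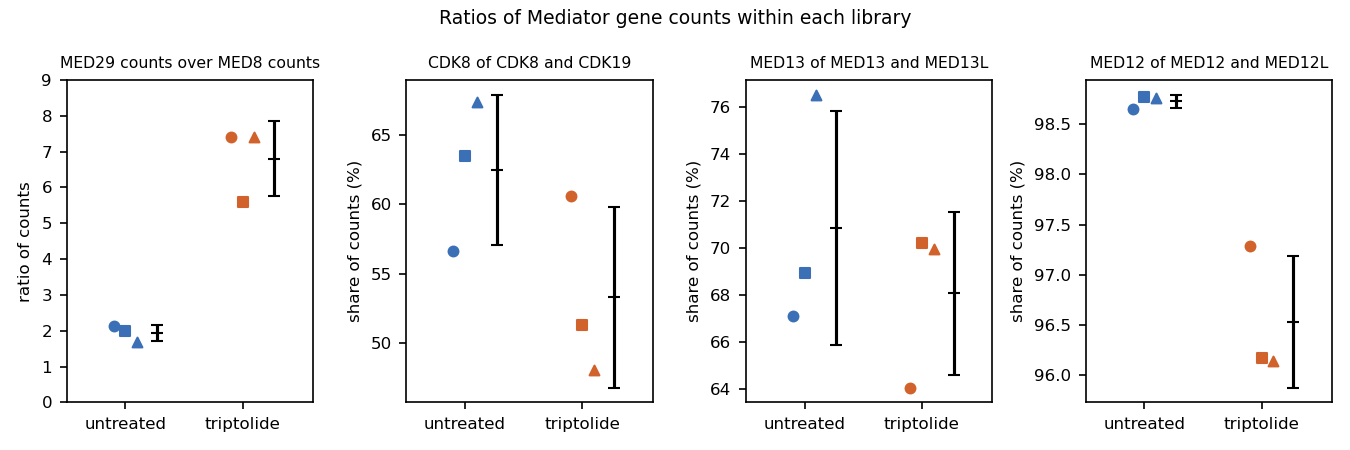
Ratio of MED29 to MED8 counts, and share of CDK8, MED13 and MED12 in the counts of their paralogue pairs, by group; points are libraries (1 symbol per replicate) and bars are mean ± SD, and the axes of the shares do not start at 0. The MED29 to MED8 ratio runs from 1.69 to 2.13 untreated and from 5.59 to 7.42 with triptolide, while the shares of CDK8 and MED13 overlap between groups.

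The changes of MED29 and MED8 can be set against each other without any scaling between libraries. MED29 had 2.13, 1.996 and 1.69 counts for each count of MED8 in the untreated libraries and 7.42, 5.59 and 7.40 in the triptolide libraries. MED29 made up 4.53% ± 0.04 of all Mediator counts untreated and 8.21% ± 0.19 with triptolide, and MED8 2.36% ± 0.29 and 1.23% ± 0.20. This pair was chosen for its difference in response, and the ratios describe it.

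CPM of different genes also depend on transcript length, so the order of levels is given as CPM per kb of exon, with exon lengths from GENCODE 29. On that scale MED10 was highest in untreated cells, at 31.96 CPM per kb, followed by MED27 at 21.5 and MED21 at 19.3. With triptolide MED29 was highest, at 29.1 CPM per kb, having been the fifth at 15.95 untreated. MED8 went from 11.7 to 6.14 CPM per kb. MED17 was lowest in both groups, at 0.29 and 0.33 CPM per kb, with MED13L next at 0.75 and 0.87. The exons annotated for these genes add up to 16.6 and 37.4 kb, far beyond their longest coding transcripts of 5.14 and 14.6 kb, which lowers a value per kb. CDK8 stood at 11.3 and 9.77 CPM per kb and CDK19 at 3.26 and 4.06, so that CDK8 was the more abundant kinase mRNA per length in both groups.

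Much of the scatter within groups followed the length and GC content of the transcripts. In untreated replicate 3, relative to the mean of the other untreated libraries, 7 of the 9 Mediator genes with a longest coding transcript over 5 kb were lower, with a median log2 ratio of -0.66. MED13L (-1.55), MED1 (-1.13) and MED13 (-0.94) were lowest, and MED28 (0.15) and MED17 (0.09) were the exceptions. Of the 10 genes with a transcript under 2 kb, 9 were higher there, with a median of 0.19. Across the 32 genes, the Spearman correlation of this ratio with transcript length was -0.7, and across 15077 tested genes it was -0.51. Such a trend was not limited to that library: for triptolide replicate 2 over triptolide replicate 3 the correlation with length was -0.69 across the 32 genes and -0.32 across all. In triptolide replicate 1, relative to the mean of the other triptolide libraries, all 5 genes with a GC content of at least 55%, which are MED15, MED16, MED24, MED25 and MED26, were higher, by log2 ratios of 0.23 to 0.79. All 8 genes with a GC content under 42% were lower there, by as much as -1.35 for CCNC and -1.10 for MED6. The Spearman correlation with GC content was 0.87 across the 32 genes and 0.74 across all tested genes. These correlations are across genes of the same libraries, which are not independent replicates, and the limits of the classes were set after the values were seen. For MED8 and MED29 the log2 ratios were 0.16 and -0.12 in untreated replicate 3 and 0.01 and 0.22 in triptolide replicate 1. Between groups their log2 fold changes were -0.93 and 0.87. In triptolide replicates 2 and 3, MED8 had 18.5 and 14.7 CPM and MED29 had 103 and 108.5 CPM. The part of transcript length in these fold changes was not tested. The fold change itself had a Spearman correlation of 0.46 with transcript length across the 32 genes and -0.01 across all genes. Fitted changes were below 0 in 9 of the 10 genes under 2 kb, against 3 of the 9 over 5 kb. With GC content the correlation was 0.21 across the 32 genes and 0.23 across all genes. All 5 genes with a GC content of at least 55% had fitted changes above 0, and 6 of the 8 under 42% had changes below 0.

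**Figure D4:**
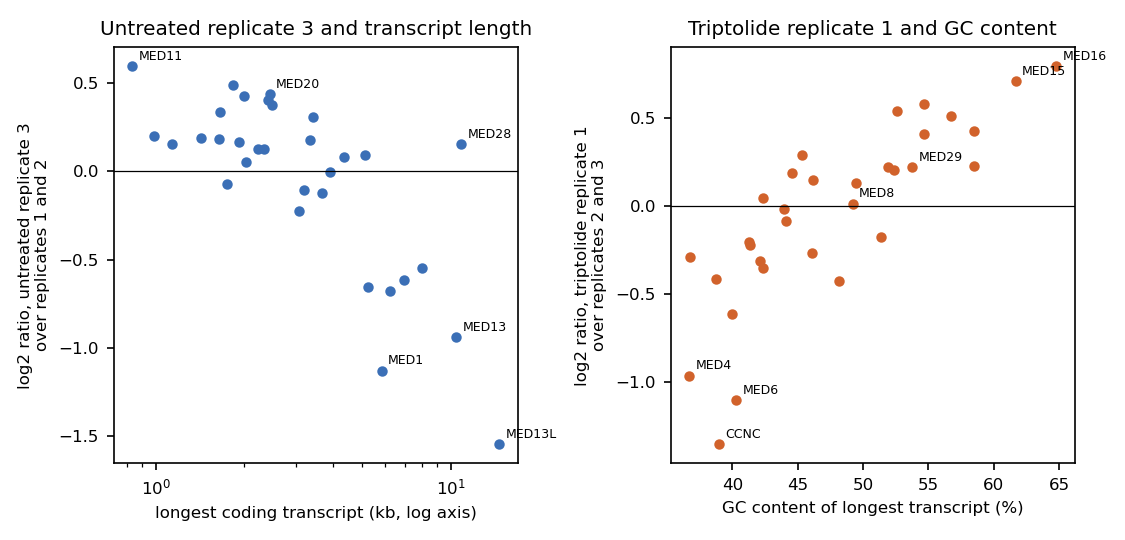
Left, log2 ratio of untreated replicate 3 over the mean of untreated replicates 1 and 2 against the length of the longest coding transcript (kb, log axis); right, log2 ratio of triptolide replicate 1 over the mean of triptolide replicates 2 and 3 against GC content, with 1 point per Mediator gene. Long transcripts lie low on the left, down to -1.55 for MED13L, and points rise with GC content on the right, from -1.35 for CCNC to 0.79 for MED16.

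Groups of genes that work beside Mediator were read from the same test, in which 15.9% of all genes passed (10% higher and 5.82% lower). Of 12 subunits of RNA polymerase II, 1 rose and 0 fell. That gene was POLR2A, the catalytic subunit that carries the tail the kinases modify, at 305, 259.5 and 205 CPM untreated and 2212, 1362 and 1700 CPM with triptolide (log2 fold change 2.78 ± 0.23, adjusted p = 2.27e-05). Of 19 coactivators and cohesin genes, 1 rose, MED12L, and 1 fell, the cohesin ring gene SMC3, from 100.1 ± 5.72 to 59.6 ± 16.6 CPM (log2 fold change -0.75 ± 0.21, adjusted p = 0.0293). Leaving out untreated replicate 1 or 2, or triptolide replicate 3, left 1, 1 and 0 calls in this group. The 2 against 2 comparison gave 6, where 24.3% of all tested genes passed.

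Of 12 tested genes of P-TEFb and the super elongation complex, which MED26 and the kinase module help to recruit, 3 rose and 0 fell. Among all genes tested, 10% rose and 5.82% fell. HEXIM1 and HEXIM2, which hold P-TEFb inactive, rose from 154 ± 5.68 to 246 ± 9.70 CPM (adjusted p = 0.00913) and from 2.48 ± 0.23 to 6.17 ± 0.45 CPM (adjusted p = 0.00174). ELL2, an elongation factor, rose from 4.92 ± 0.67 to 8.16 ± 1.41 CPM (adjusted p = 0.0365). Without untreated replicate 2, 1 gene of this group passed. Of 13 transcription kinases, their cyclins and partners, a list that includes CDK8, CDK19 and CCNC, 0 passed in edgeR, with 1 at an unadjusted p under 0.05, CDK11A, and DESeq2 and limma-voom called 0. CDK12 and CDK11B, which had the highest CPM without correction for length, stood at 131 ± 33.6 and 118 ± 12.6 CPM (adjusted p = 0.656) and at 82.3 ± 10.7 and 101.5 ± 10.6 CPM (adjusted p = 0.238). CDK11A and CDK11B are near-identical copies, so the split of reads between them is uncertain.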

How the data were processed

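The authors deposited whole-number counts per Ensembl gene for 6 libraries of poly(A)-selected mRNA, read as pairs of 150 bp, per the labels' protocols. HISAT2 and featureCounts are named, without versions, per the submitters' processing notes. Genome build, annotation, strand setting and treatment of shared reads are not stated in any source at hand. Symbols were matched by Ensembl ID for 35639 of 35716 genes, and lengths and GC content came from GENCODE 29. Counts were filtered with filterByExpr, given TMM factors and fitted by group alone with the quasi-likelihood test of edgeR 4.0.16 in R 4.3.3. Benjamini-Hochberg adjustment ran over all 15202 genes tested. Standard errors came from the fold change and its F statistic. The fit was also run on simulated counts, which were drawn without the length and GC trends of single libraries. Alternatives were other scalings and filters, DESeq2 1.42.0, limma-voom (limma 3.58.1), a replicate block, a GC offset and left-out libraries. Figures were drawn with matplotlib 3.10.9. Promoter windows are RefSeq's.

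The Mediator genes, the related and marker lists and the tests were chosen with earlier results of these data known. Values in every library are given for Mediator genes past the threshold, for paralogue pairs and for the genes of highest and lowest mean CPM in each module. Other genes shown by library were chosen after their values were seen. Related lists are represented by their genes past the threshold (at most 3 a direction, by adjusted p), or, without any, by the 2 with the highest mean CPM.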

Additional observations from a re-analysis of the deposited data

How the results depend on the processing

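Over 17 alternative settings the 32 genes gave 543 values, of which 489 kept direction and call, 1 lost a call, 9 gained one and 44 changed sign, all of the last in genes that were not called. Except where a setting removes genes or libraries, the cause was not tested. Higher genes numbered 584 when a mean level of 5 CPM was required and 953 to 1580 with 1 library left out. Lower genes numbered 128 with ribosomal protein scaling, under which the log2 fold changes had an overall median of 0.17, 336 with at least 5 CPM, 2044 with the GC offset, 1347 with that offset and the block, 1841 in the 2 against 2 comparison and 407 to 1034 with 1 library left out. Calls were 63.3% higher in the main analysis, 73.8% with library totals, 90.3% with ribosomal protein scaling and 48.9% with the GC offset.

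The share of all tested genes called was 8.67% with ribosomal protein scaling, 12.6% in DESeq2, 26.3% with the GC offset and 24.3% in the 2 against 2 comparison. It was 14.9% with library totals, 8.94% with at least 5 CPM and 8.55% to 16.2% with 1 library left out. Beside these shares, Mediator genes called lower numbered 0 with ribosomal protein scaling, 2 in DESeq2 and 3 with the GC offset. They numbered 5 in the 2 against 2 comparison and 1 to 2 with 1 library left out. Coactivators and cohesin had 1 call with library totals, 1 with ribosomal protein scaling, 0 with at least 5 CPM, 4 with the GC offset, 6 in the 2 against 2 comparison and 0 to 3 with 1 library left out. P-TEFb genes had 1 to 3 and transcription kinases 0 to 1 with 1 library left out, and the kinases 2 in the 2 against 2 comparison. The difference in the MED12 share was -1.31 percentage points per kb of exon, against -2.19 on counts.

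Signs changed as follows on the log2 scale. With ribosomal protein scaling MED6 was 0.104, MED4 0.041, MED7 0.039, MED19 0.185, MED31 0.11 and MED12 0.007. With the GC offset MED6 was 0, MED4 0.026, MED21 0.033, MED15 -0.104 and MED25 -0.074, and with the block added MED4 was 0.015, MED21 0.031, MED15 -0.108 and MED25 -0.074. MED19 was 0.065 with library totals and 0.078 with at least 5 CPM. In the 2 against 2 comparison MED6 was 0.343, MED4 0.127, MED7 0.153, MED19 0.118, MED31 0.124, CCNC 0.009, MED14 -0.04, MED15 -0.136, MED25 -0.033 and MED13L -0.123. With 1 library left out MED6 ran from -0.522 to 0.202, MED4 from -0.375 to 0.124, MED7 from -0.33 to 0.021, MED19 from -0.053 to 0.068, MED31 from -0.19 to 0.019, MED14 from -0.117 to 0.145, MED15 from -0.182 to 0.206, MED25 from -0.063 to 0.171, MED12 from -0.312 to 0.077, MED13 from -0.127 to 0.304 and MED13L from -0.153 to 0.515.

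Libraries share replicate numbers between groups. Deviations of same-numbered libraries from their group means had correlations of 0.029, -0.041 and -0.439. Those of differently numbered libraries ran from -0.277 to 0.312. With so few libraries, whose deviations also followed length and GC content, these values cannot decide whether the numbers pair them. With the replicate block 15.6% of genes passed (1523 higher, 856 lower), with MED29 and MED8 still called. Counts of MED11 ran from 76 to 137 per library and its 95% interval from -1.10 to 0.02, while those of CCNC ran from 269 to 1186 and its interval from -1.13 to 0.23.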
